A study of Homo sapiens with 18 samples.

Results

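5 genes of pancreatic islet hormones, INS, IAPP, SST, PPY and GHRL, were followed across 18 libraries of human stem-cell-derived beta-like cells and their precursors. They are 5 of the 57808 genes in the deposited count table, taken by gene name, and each matched 1 row. INS encodes insulin (ENSG00000254647.6, chr11:2159779-2161209), IAPP amylin (ENSG00000121351.7, chr12:21354959-21379980) and SST somatostatin (ENSG00000157005.3, chr3:187668912-187670394). PPY encodes pancreatic polypeptide (ENSG00000108849.7, chr17:43940804-43944215) and GHRL ghrelin (ENSG00000157017.15, chr3:10285666-10292947). Positions are those of RefSeq on GRCh38.p14, and the levels below are CPM (counts per 1e6 counts of the library) unless another scale is named.

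The cells were MEL1, an established human embryonic stem cell line in which the INS promoter drives GFP, differentiated to beta-like cells (sBC) in stirred suspension. RNA was sequenced in GFP+ sBC and GFP- sBC, whose labels name no RPL22 tag, and in definitive endoderm (DE, the germ layer that gives rise to gut and pancreas) and undifferentiated stem cells (hPSC), both of genotype RPL22-FLAG. Footprints of ribosomes pulled down through the FLAG tag (IP-Ribo) came from GFP+ sBC that had received RPL22-FLAG by lentivirus and from RPL22-FLAG DE and hPSC, and total footprints (Ribo) from RPL22-FLAG DE and hPSC alone. Each of the 9 groups held 2 libraries. The labels do not say that these came from separate cultures, so p-values measure only the spread between these libraries, which may be technical. They also do not say whether transcripts of the allele that carries GFP were counted toward INS.

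In the adult islet each of these peptides marks a secretory cell type. Beta cells release insulin together with amylin from the same granules, delta cells release somatostatin, which restrains their neighbours, PP cells release pancreatic polypeptide, and epsilon cells, more common in the fetal islet, release ghrelin. All 5 are made as larger precursors in secretory cells, where the convertases PCSK1 and PCSK2 cut prohormones and the carboxypeptidase CPE trims the cut ends of many. Amylin and pancreatic polypeptide are further amidated by PAM, and ghrelin is acylated by MBOAT4. During development, endocrine cells with more than one hormone precede those with a single one.

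The promoters of INS and SST are shown because both hormones rose together in sBC, and that of IAPP beside them because IAPP was already counted in hPSC RNA. Each is the RefSeq sequence of the 250 bases before the transcription start on GRCh38.p14, 5′ to 3′ on the gene's strand, and IAPP is shown for the downstream one of its 2 RefSeq starts. Capitals mark 4 motifs searched without mismatches on both strands, with N for any base. CTAATG is a core of the A boxes bound by PDX1, and TGACGTCA is the cyclic AMP response element. TATAAA is a form of the TATA box, and CANNTG is the E box, bound by NEUROD1 among others. The windows lie at chr11:2161210-2161459 (minus strand), chr3:187670395-187670644 (minus strand) and chr12:21372652-21372901 (plus strand).
INS: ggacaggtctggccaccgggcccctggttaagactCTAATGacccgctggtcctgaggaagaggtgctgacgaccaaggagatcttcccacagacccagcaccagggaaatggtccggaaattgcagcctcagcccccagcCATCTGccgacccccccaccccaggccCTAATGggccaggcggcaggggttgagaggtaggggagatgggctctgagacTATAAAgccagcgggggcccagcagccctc
SST: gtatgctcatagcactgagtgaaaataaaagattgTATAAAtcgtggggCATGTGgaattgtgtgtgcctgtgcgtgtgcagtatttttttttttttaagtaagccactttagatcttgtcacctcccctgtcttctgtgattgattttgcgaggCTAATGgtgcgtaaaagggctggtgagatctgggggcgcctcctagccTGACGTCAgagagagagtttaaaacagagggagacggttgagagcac
IAPP: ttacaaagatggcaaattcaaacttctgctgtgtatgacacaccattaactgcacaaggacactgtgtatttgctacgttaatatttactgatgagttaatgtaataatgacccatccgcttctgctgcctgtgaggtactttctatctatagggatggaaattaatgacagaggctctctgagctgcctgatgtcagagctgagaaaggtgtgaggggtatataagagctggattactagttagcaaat
INS held CTAATG at -215 to -210 and again at -82 to -77 from the start, an E box at -109 to -104 and TATAAA at -30 to -25. SST held CTAATG at -95 to -90, the full TGACGTCA at -47 to -40, an E box at -201 to -196 and TATAAA at -215 to -210, much farther from the start than in INS. None of the 4 exact motifs occurred in the IAPP window shown. Variants of the motifs were not searched in any window, such as tatataag near the end of that of IAPP and tttaaaa near the end of that of SST. Each window may thus hold further such sites. The window before the other IAPP start, which is not shown, held 2 E boxes, at -178 to -173 and at -36 to -31. Among 35116 RefSeq promoters of this length, 5.6% held CTAATG, 1.6% TGACGTCA, 10.7% TATAAA and 61.8% CANNTG. The matches describe the sequence only and show no binding.

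Depth ran from 27.36 to 92.53 M counts in RNA, from 22.29 to 30.17 M in Ribo and from 6.61 to 23.11 M in IP-Ribo. Protein-coding genes took 54.6% and 62.8% of the GFP+ sBC IP-Ribo libraries and 40.5% of DE Ribo replicate 1, against 76.0% to 90.4% elsewhere. The summed level of 5 pluripotency markers was 22.1 and 24.1 CPM in GFP+ sBC RNA, 44.1 and 77.7 in GFP- sBC RNA. Of 9 beta cell markers, 7 were higher in GFP+ sBC RNA than in hPSC RNA, 1 was lower and 1 was not called. Of all genes tested there, 30.4% were higher and 30.9% lower. Among the 9, GFP+ sBC RNA held INS, G6PC2, a phosphatase subunit of beta cells, at 153 and 39.8 CPM, and the zinc transporter SLC30A8 at 857 and 849 CPM. HADH had a mean of 41.7 CPM in hPSC RNA and 44.5 CPM in GFP+ sBC RNA. ADCYAP1 had a mean of only 0.667 CPM in GFP+ sBC RNA. MAFA, a regulator of the insulin gene in mature beta cells, had 0.336 and 1.65 CPM and lay lower there than in hPSC (log2 fold change -2.91 ± 0.66 SE, edgeR adjusted p = 0.00637).

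By stage, all 5 hormones rose in sBC, and they differed in what preceded the rise. INS had no count in any of the 12 hPSC and DE libraries, in RNA, Ribo or IP-Ribo. In sBC RNA it had 5148 and 5871 CPM in the GFP+ libraries and 1964 and 1220 CPM in the GFP- libraries. INS was thus present on both sides of the sort and undetected before it, where a count of 0 allows up to 0.0376 CPM in hPSC RNA and 0.0328 CPM in DE RNA (3 counts of a library, counting error only). SST had 0.113 and 0.14 CPM in hPSC RNA, 0.119 and 0.0218 CPM in DE RNA, 916 and 1127 CPM in GFP+ sBC RNA and 154 and 145 CPM in GFP- sBC RNA. Behind the hPSC and DE values lay only 2 to 12 counts a library.

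**Figure D1:**
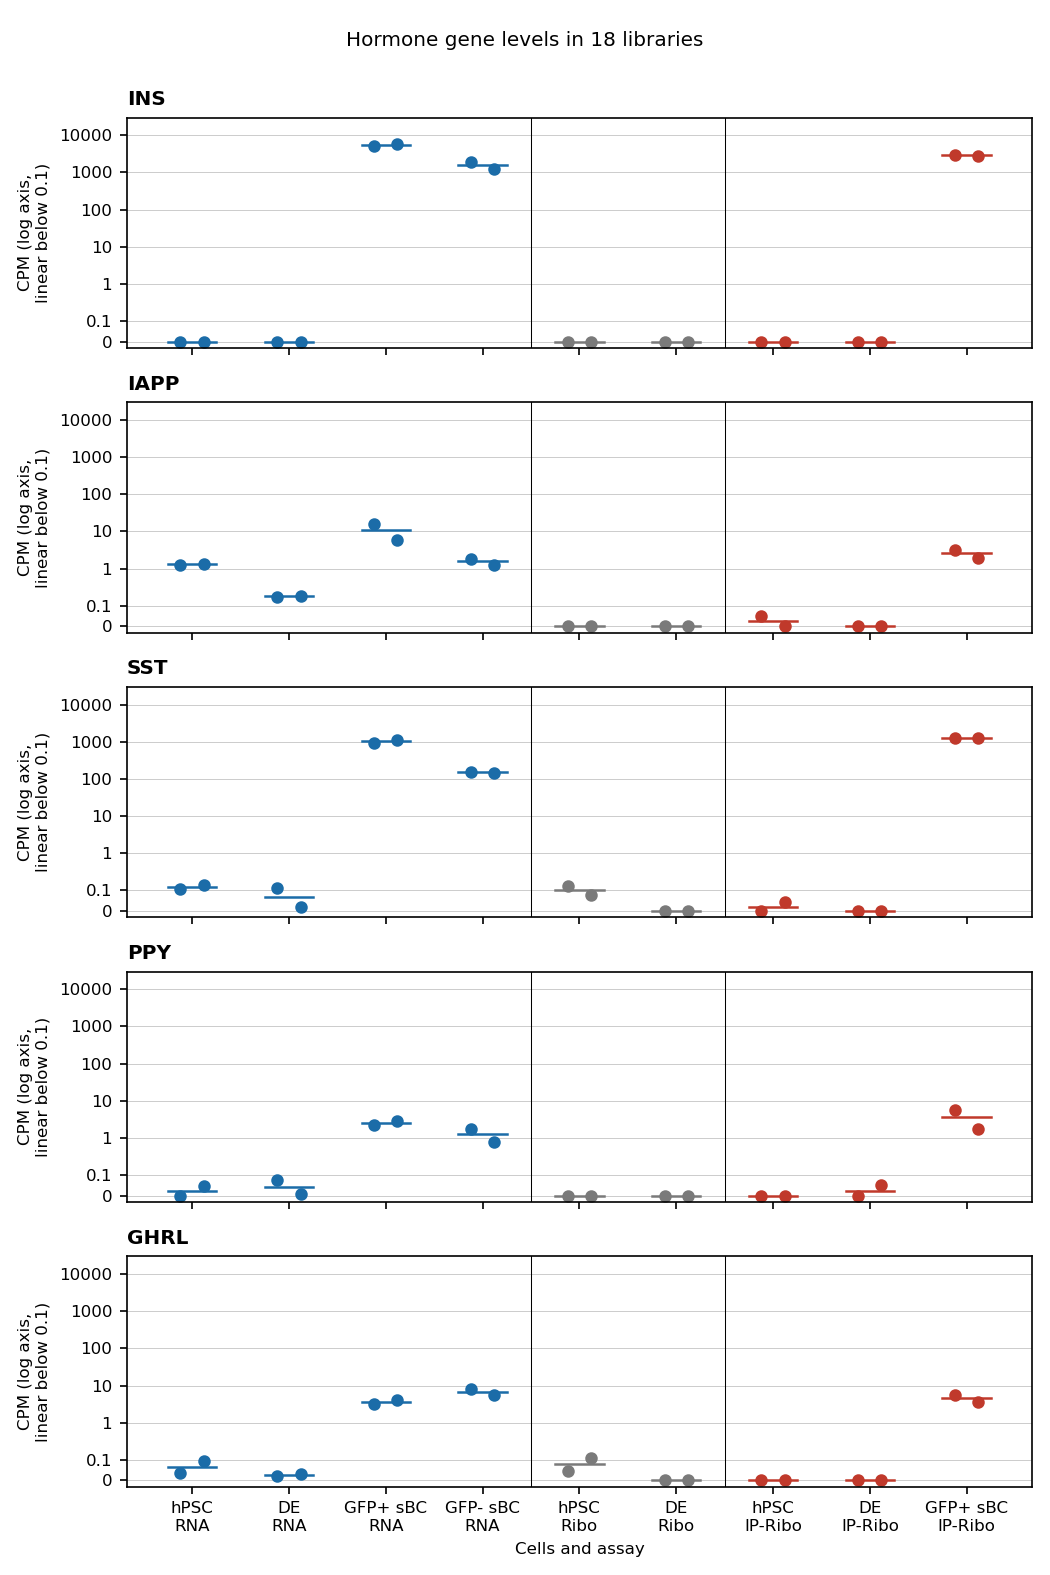
Level of the 5 hormone genes in each of the 18 libraries, in CPM on a log axis that is linear below 0.1, with 1 point per library and a line at the mean of the 2. INS lies at 0 in all hPSC and DE libraries, IAPP is present in hPSC RNA but not in hPSC Ribo, and GHRL alone lies higher in GFP- than in GFP+ sBC RNA.

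IAPP took another course. It had 1.25 and 1.36 CPM in hPSC RNA (100 and 116 counts), 0.173 and 0.186 CPM in DE RNA (16 and 17 counts), 16.05 and 5.83 CPM in GFP+ sBC RNA and 1.83 and 1.28 CPM in GFP- sBC RNA. The GFP- sBC libraries therefore lay near the values of hPSC, a difference that was not tested, and the 2 GFP+ libraries lay apart from each other. The fall in DE against hPSC passed the test (log2 fold change -2.78 ± 0.24 SE, adjusted p = 1.74e-06). It stood among 75.6% of 20634 genes called in that comparison (38.7% higher and 36.8% lower in DE), and SST did not pass there (-0.76 ± 0.65, adjusted p = 0.302), while INS, PPY and GHRL were too low to be tested. In hPSC footprints IAPP had 1 and 0 counts in IP-Ribo and none in Ribo. The IAPP locus lies inside that of SLCO1A2, a transporter gene with 394 and 428 counts in hPSC RNA and 390 and 430 in DE RNA. The strand setting of the counting is not given in the sources used here. Reads of overlapping transcripts could thus not be told apart, and the part they had in the IAPP counts of hPSC was not tested.

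PPY, the hormone of PP cells, and GHRL, that of epsilon cells, were nearly absent before the sBC stage. PPY had 2.18 and 2.79 CPM in GFP+ sBC RNA and 1.78 and 0.768 CPM in GFP- sBC RNA, after 0 and 4 counts in hPSC RNA and 7 and 1 in DE RNA. GHRL had 3.26 and 4.05 CPM in GFP+ sBC RNA and 8.18 and 5.59 CPM in GFP- sBC RNA, after 3 and 8 counts in hPSC RNA and 2 and 3 in DE RNA. For GHRL the sBC libraries did not overlap, with both GFP- libraries above both GFP+ libraries, a difference that did not pass the edgeR test across the sort. The share of all genes separated in this way was not counted. In hPSC Ribo GHRL had 1 and 3 counts and SST 3 and 2, and neither had any in DE Ribo.

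Against hPSC, all 5 hormones were called higher in GFP+ sBC RNA, where 61.3% of 23321 genes were called, 30.4% of those tested higher and 30.9% lower (edgeR quasi-likelihood F test, 2 libraries a group, adjusted p under 0.05). INS was at least 214000-fold higher than a floor of 3 counts over the 2 hPSC libraries. The log2 fold change of SST was 12.45 ± 0.53 SE (adjusted p = 6.25e-06) and that of PPY 6.07 ± 1.04 (adjusted p = 0.00173). That of GHRL was 5.24 ± 0.51 (adjusted p = 0.000107) and that of IAPP, the smallest of the 5, was 2.57 ± 0.51 (adjusted p = 0.00348). Against DE, where 60.7% of genes were called (29.9% higher and 30.9% lower), INS was at least 235000-fold higher in GFP+ sBC and the other 4 had log2 fold changes of 13.26 ± 0.55 for SST, 6.45 ± 0.56 for GHRL, 5.41 ± 0.60 for IAPP and 5.25 ± 0.95 for PPY.

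The cells sorted out as GFP- held the hormones too. Against DE, where 58.5% of 23321 genes were called (30.4% higher and 28.1% lower), all 5 were called higher in GFP- sBC RNA. INS was at least 70600-fold higher, SST had a log2 fold change of 10.48 ± 0.51 SE, GHRL of 7.37 ± 0.56, PPY of 4.32 ± 0.95 (edgeR adjusted p = 0.00628) and IAPP of 2.59 ± 0.56 (edgeR adjusted p = 0.006). For IAPP, DE was the lowest stage in RNA. Its 1.83 and 1.28 CPM in GFP- sBC lay near the 1.25 and 1.36 CPM of hPSC, a difference that was not tested. The comparisons of GFP+ and of GFP- sBC with DE share the DE libraries.

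The machinery that processes and stores peptide hormones was also higher in sBC, though parts of it were present before. Of 14 genes of hormone processing and storage, 14 rose in GFP+ sBC against hPSC (median log2 fold change 7.61, against 0.04 over all genes tested), and 14 rose against DE. Of all genes tested, 30.4% were higher against hPSC and 29.9% against DE. The convertases PCSK2 (10.82 ± 0.40 SE against hPSC) and PCSK1 (6.80 ± 0.54), the granule protein chromogranin A (CHGA, 10.58 ± 0.39) and the carboxypeptidase CPE (7.97 ± 0.31) were among them. CPE already had 59.1 and 70.1 CPM in DE RNA. In hPSC RNA the granule protein gene SCG3 had a mean of 18.1 CPM and PAM of 14.4 CPM. MBOAT4, the enzyme that acylates ghrelin, had 2.75 and 6.32 CPM in GFP+ sBC RNA and 2.58 and 5.45 CPM in GFP- sBC RNA. Those values overlapped between the 2 sides of the sort. Of 15 regulators of hormone genes, 14 rose in GFP+ sBC against hPSC, with NEUROD1 at 13.94 ± 0.52 and PDX1 at least 4230-fold higher, and MAFA fell. Against DE, 13 rose, HHEX, a factor of both early endoderm and delta cells, fell, and MAFA did not pass (1.05 ± 0.66, edgeR adjusted p = 0.203).

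The sort of sBC by GFP asks which hormone RNAs go with activity of the INS promoter. In the main fit, which did not pair libraries, SST alone of the 5 hormones passed the test over all genes. There 2.43% of 19797 genes were called, 0.0808% of those tested (16 genes) higher and 2.35% lower in GFP+ sBC. SST was 6.81-fold higher in GFP+ sBC (log2 fold change 2.77 ± 0.34 SE, adjusted p = 0.0087). INS had a log2 fold change of 1.78 ± 0.41 (adjusted p = 0.0749) and IAPP of 2.81 ± 0.62 (adjusted p = 0.0666), with both GFP+ libraries above both GFP- libraries for each. PPY had 0.93 ± 0.61 (adjusted p = 0.633) and GHRL -0.93 ± 0.47 (adjusted p = 0.515), and neither passed. The share of all genes whose libraries were separated like those of INS and IAPP was not counted. The 2 GFP- libraries were less alike than the 2 GFP+ libraries. Spearman's correlation over genes with at least 20 counts was 0.932 in GFP- sBC and 0.984 in GFP+ sBC. The part of this difference in the calls was not tested. With 2 libraries against 2, an exact permutation test cannot give a two-sided p under 0.333. In these bulk libraries, fewer cells of a type and less RNA per cell cannot be told apart.

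**Figure D2:**
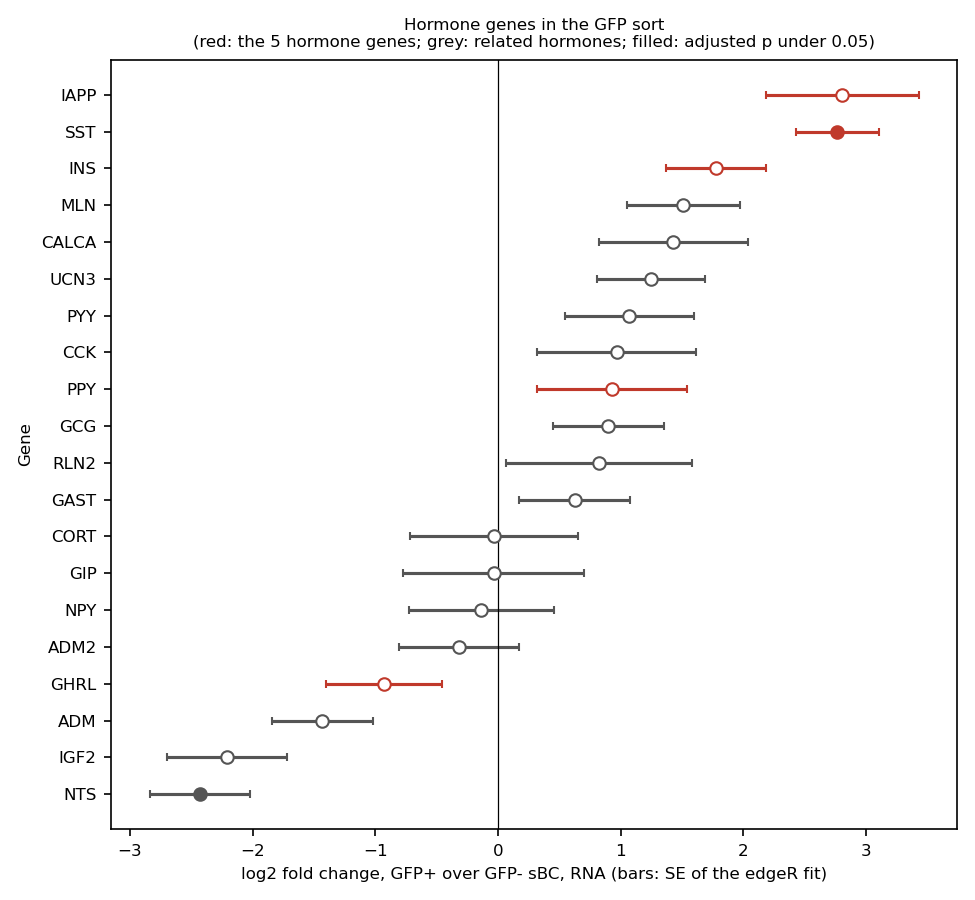
Log2 fold change of GFP+ over GFP- sBC in RNA for the 5 hormone genes (red) and 15 tested related hormone genes (grey), with bars for the SE of the edgeR fit on 2 libraries a group and filled points for an adjusted p under 0.05. SST and NTS are filled, IAPP and SST lie near 2.8, and GHRL lies below 0.

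INS and IAPP stood close to the threshold. INS passed in a fit of all 8 RNA libraries (adjusted p = 0.035), by DESeq2 (0.000743) and with no filter (log2 fold change 1.76), with protein-coding genes alone (1.83) and without GFP- replicate 1 (2.20) or GFP- replicate 2 (1.45), and IAPP in the first 3 of these (2.79 with no filter) and without GFP+ replicate 2 (3.38) or GFP- replicate 2 (2.54). GHRL passed without GFP- replicate 2 (-1.20, edgeR adjusted p = 0.0377), a setting in which 7815 genes were called instead of 481.

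Other peptide hormones were compared across the same sort. Among 20 related hormone genes 15 could be tested, 0 rose (0.0808% of all genes did) and 1 fell (2.35% of all genes did), neurotensin (NTS, -2.43 ± 0.41 SE, edgeR adjusted p = 0.0269), which had 3.22 and 4.34 CPM in GFP+ sBC and 18.5 and 22.3 CPM in GFP- sBC. The median of the 15 was 0.63, against 0 over all genes, and 2 of them were lower with protein-coding genes alone. Glucagon (GCG) had 36030 and 24520 CPM in GFP+ sBC and 19160 and 13120 CPM in GFP- sBC and did not pass (0.90 ± 0.46, edgeR adjusted p = 0.509). The insulin-like growth factor IGF2, the neighbour of INS, had 1225 and 2722 CPM in GFP+ sBC and 7152 and 11060 CPM in GFP- sBC (-2.21 ± 0.49, edgeR adjusted p = 0.0662). Its values lay opposite to those of INS without passing the test.

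Of the 14 processing and storage genes 1 rose in GFP+ sBC, ERO1B (2.16 ± 0.39 SE, edgeR adjusted p = 0.0348), an oxidase that serves disulfide formation in proinsulin, where 0.0808% of all genes rose. With protein-coding genes alone 2 of the 14 rose, and 3 of 9 beta cell markers in place of 0. The zinc transporter SLC30A8 had 857 and 849 CPM in GFP+ sBC and 140 and 306 CPM in GFP- sBC and did not pass (adjusted p = 0.058 by edgeR). None of 15 regulators and none of 11 tested hormone receptors passed in the edgeR fit. The largest values among the regulators were those of ISL1 (1.27 ± 0.32, edgeR adjusted p = 0.0977) and PAX6 (1.06 ± 0.33, edgeR adjusted p = 0.191). Of 5 delta cell markers SST was the 1 that passed, and the delta cell receptor CASR (1.29 ± 0.38, edgeR adjusted p = 0.164) and the delta cell factor HHEX (0.41 ± 0.38, edgeR adjusted p = 0.712) did not.

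Markers of other cells moved with the sort. Of 8 duct, progenitor and acinar markers 4 fell in GFP+ sBC and 0 rose, CFTR, SPP1 and SOX9 among those that fell. Of all genes tested, 2.35% fell and 0.0808% rose. The summed level of the 8 markers was 231 and 380 CPM in GFP+ sBC and 1688 and 1702 CPM in GFP- sBC. Of 6 mesenchyme markers 2 fell, SPARC and PDGFRB, with sums of 157 and 187 CPM in GFP+ sBC and 565 and 292 CPM in GFP- sBC. PDGFRB was low on both sides, with means of 0.148 CPM in GFP+ sBC and 1.81 CPM in GFP- sBC. PTF1A, which defines acinar and progenitor cells, was at 0 in GFP+ replicate 1. The part of these cells in the hormone differences was not tested.

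Set against INS in the same library, the hormones kept different proportions across the sort. SST had 178 and 192 counts per 1000 INS counts in GFP+ sBC and 78.1 and 119 in GFP- sBC. GHRL had 0.633 and 0.69 in GFP+ sBC and 4.16 and 4.58 in GFP- sBC. Relative to INS, SST was thus higher in both GFP+ libraries and GHRL in both GFP- libraries. GCG had 6999 and 4177 counts per 1000 INS counts in GFP+ sBC and 9756 and 10750 in GFP- sBC, also without overlap. In CPM, GCG lay the other way, with both GFP+ libraries above both GFP- libraries. IAPP had 3.12 and 0.993 in GFP+ sBC and 0.928 and 1.05 in GFP- sBC, which overlapped. PPY had 0.424 and 0.475 in GFP+ sBC and 0.906 and 0.629 in GFP- sBC, without overlap, the last from 21 counts. Each ratio shares the INS counts of its library, and INS had 5148 and 5871 CPM in GFP+ sBC and 1964 and 1220 CPM in GFP- sBC. A higher share of INS in GFP+ sBC lowers every ratio there. How many of all genes would separate in this way was not counted. Among the summed counts of the 5 hormones, INS-IGF2 and GCG, most were GCG, 81.6 ± 5.5% (SD, n = 2) in GFP+ sBC and 90.2 ± 0.39% in GFP- sBC. INS together with INS-IGF2 made up 15.4 ± 4.5% in GFP+ sBC and 8.84 ± 0.59% in GFP- sBC. SST made up 2.87 ± 0.99% in GFP+ sBC and 0.862 ± 0.2% in GFP- sBC. These are shares of counts, not corrected for transcript length. With 2 libraries against 2, the smallest two-sided p of an exact permutation test is 0.333, so that test cannot pass here, and no other test of these proportions was run.

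**Figure D3:**
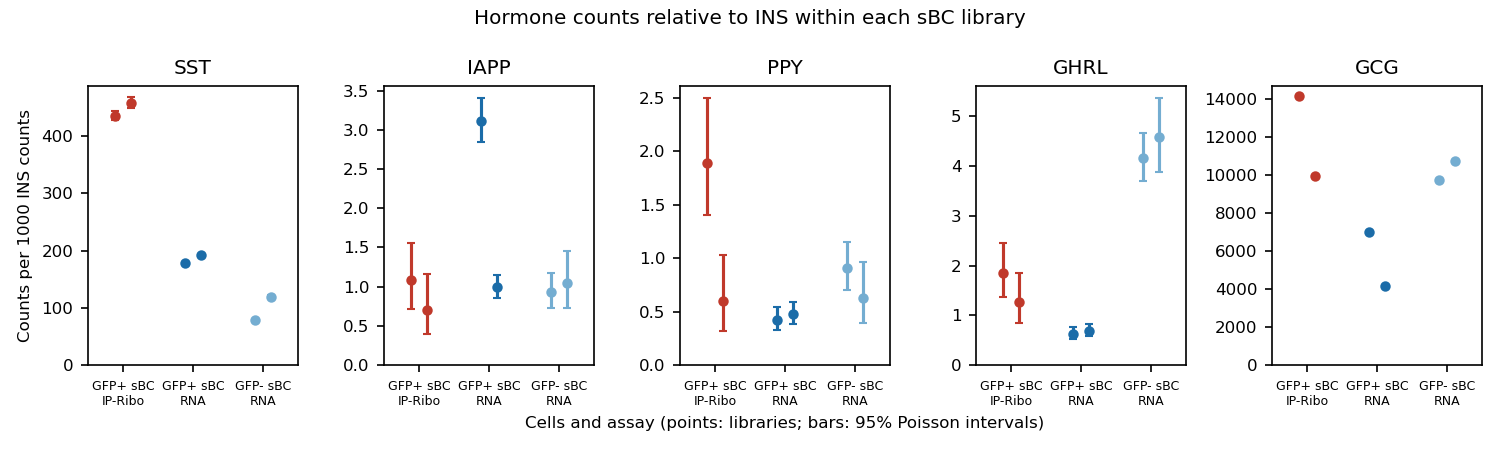
Counts of each hormone per 1000 INS counts in the same library, for GFP+ sBC IP-Ribo, GFP+ sBC RNA and GFP- sBC RNA, with 1 point per library and 95% Poisson intervals of the hormone's count. SST runs from 78.1 to 459 with the IP-Ribo libraries highest, while GHRL lies highest in GFP- sBC RNA, at 4.16 and 4.58.

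Footprints of all 5 hormones were likewise higher in sBC than at the earlier stages. In GFP+ sBC IP-Ribo, INS had 2971 and 2799 CPM, SST 1294 and 1283, GHRL 5.50 and 3.56, PPY 5.61 and 1.71 and IAPP 3.21 and 1.98. The values of GHRL, PPY and IAPP rest on few counts, from 13 for PPY in replicate 2 to 49 for PPY in replicate 1. Against hPSC IP-Ribo, where 58.9% of 16018 genes were called (30.4% higher and 28.5% lower), all 5 were called higher. INS was at least 42300-fold, GHRL at least 67.2-fold and PPY at least 55.6-fold higher than the floor, SST had a log2 fold change of 15.38 ± 0.57 SE and IAPP of 6.44 ± 1.26 (edgeR adjusted p = 0.00498). IAPP lost its call without hPSC replicate 2 (5.50, edgeR adjusted p = 0.0507). Against DE IP-Ribo, where 52.6% were called (27.8% higher and 24.8% lower), all 5 were called higher again, INS at least 37600-fold, SST at least 16800-fold, GHRL at least 59.7-fold and IAPP at least 34.2-fold, and PPY with 6.91 ± 1.29 (edgeR adjusted p = 0.00489). In DESeq2 the call of GHRL was lost in both comparisons (adjusted p = 0.0864 against hPSC and 0.111 against DE). Both comparisons share the sBC libraries. Of the 14 processing genes, 14 rose in IP-Ribo against hPSC, and of 15 regulators 14 could be tested and 14 rose. MAFA was too low to be tested, with means of 0.114 CPM in GFP+ sBC and 0.395 CPM in hPSC IP-Ribo. Genes near 0 in hPSC and DE, the 5 hormones among them, entered this test only through their level in sBC, so for them a rise was the likely outcome.

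Within GFP+ sBC, footprints were set against RNA to ask which hormones take more of the footprints than of the RNA. SST, PPY and GHRL were called higher in IP-Ribo than in RNA and INS and IAPP were not, with 58.8% of 18366 genes called, 26.6% higher and 32.2% lower. The log2 fold change was 1.69 ± 0.21 SE for SST (adjusted p = 0.000977), 1.98 ± 0.69 for PPY (adjusted p = 0.0444) and 1.69 ± 0.46 for GHRL (adjusted p = 0.0197). It was 0.42 ± 0.23 for INS (adjusted p = 0.157) and -0.71 ± 0.62 for IAPP (adjusted p = 0.353). Glucagon (GCG) was higher too, at 1.58 ± 0.41 (edgeR adjusted p = 0.0165). The median over all genes tested was -0.24. The calls of PPY and GHRL were lost without IP-Ribo replicate 1 (0.62 and 1.12) and without either RNA library, and IAPP had 0.25 without RNA replicate 1. By DESeq2 INS was called higher (0.49, adjusted p = 0.0253).

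The direction for INS depended on the scale. On the TMM scale of the test, INS had 5235 and 4050 CPM in IP-Ribo and 3311 and 3611 CPM in RNA. As a share of all counts it was the other way round, 2971 and 2799 CPM in IP-Ribo and 5148 and 5871 CPM in RNA. On that scale the values of PPY, GHRL and GCG overlapped between the assays, GCG with 42160 and 27880 CPM in IP-Ribo and 36030 and 24520 CPM in RNA. Those of SST stayed higher in IP-Ribo on both scales. Per 1000 INS counts, which needs no scaling, SST had 436 and 459 counts in IP-Ribo and 178 and 192 in RNA, GHRL 1.85 and 1.27 in IP-Ribo and 0.633 and 0.69 in RNA, and GCG 14190 and 9959 in IP-Ribo and 6999 and 4177 in RNA. PPY had 1.89 and 0.601 in IP-Ribo and 0.424 and 0.475 in RNA, and IAPP 1.08 and 0.706 in IP-Ribo and 3.12 and 0.993 in RNA. Relative to INS, the footprints of SST, GHRL and GCG exceeded their RNA in every library pairing, and those of IAPP overlapped. All these ratios share the INS counts, and a lower share of INS in IP-Ribo raises each of them. For PPY the value of IP-Ribo replicate 2 rests on 13 counts, and its 95% Poisson interval, 0.318 to 1.03, holds both RNA values.

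**Figure D4:**
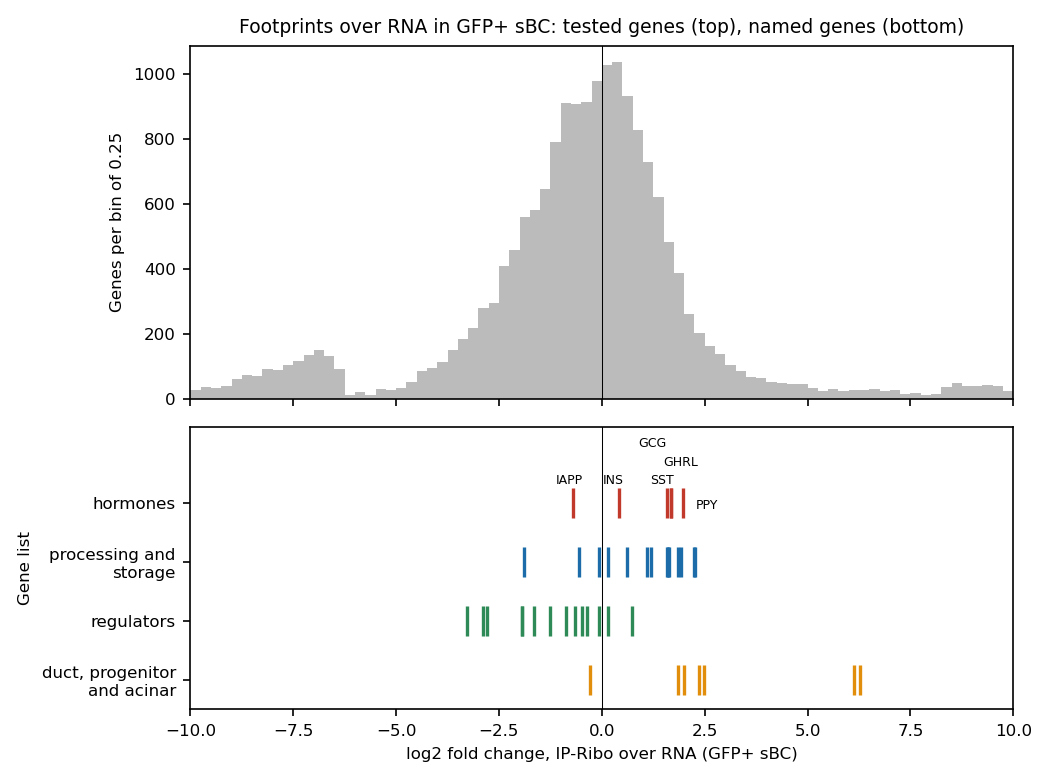
Top, log2 fold change of IP-Ribo over RNA in GFP+ sBC for tested genes in bins of 0.25, with 122 genes below -10 and 379 above 10 not drawn. Bottom, the same for the 5 hormones and GCG, hormone processing and storage genes, hormone gene regulators, and duct, progenitor and acinar markers, with SST, GHRL, PPY and GCG between 1.58 and 1.98 and CFTR and SPP1 above 6.

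Over all genes tested in IP-Ribo against RNA, 26.6% were higher and 32.2% lower, with a median log2 fold change of -0.24. Of 14 processing and storage genes 9 were higher in IP-Ribo and 2 lower (median 1.39), with secretogranin III (SCG3, 2.24 ± 0.22 SE) and MBOAT4 (2.26 ± 0.44) highest and the zinc transporter SLC30A8 lowest (-1.90 ± 0.17). SLC30A8 had 86.7 and 93.02 CPM in IP-Ribo and 857 and 849 CPM in RNA. Of 14 tested regulators 1 was higher, RFX6 (0.74 ± 0.16), and 8 were lower (median -1.07), INSM1 most (-3.29 ± 0.17). Of 14 tested related hormones 6 were higher and 2 lower (median 1.52), with GIP at 3.20 ± 0.41 and IGF2 at -2.26 ± 0.46.

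Markers of other cells moved with the assay as well. Of 7 tested duct, progenitor and acinar markers 5 were higher in IP-Ribo and 0 lower, against 26.6% and 32.2% of all genes tested. The 8 genes summed to 782 and 1091 CPM in IP-Ribo, against 231 and 380 CPM in GFP+ sBC RNA. CFTR, the chloride channel of duct cells, had 202 and 380 CPM in IP-Ribo and 10 and 10.7 CPM in GFP+ sBC RNA (6.12 ± 0.29 SE), and 461 and 1032 CPM in GFP- sBC RNA. SPP1 (6.28 ± 0.65), SPARC (5.55 ± 0.48) and SOX9 (2.49 ± 0.29) were higher too, and 3 of 5 tested mesenchyme markers were, with sums of 216 and 247 CPM in IP-Ribo and 157 and 187 CPM in GFP+ sBC RNA. PTF1A was at 0 in both IP-Ribo libraries. The part of these cells in the hormone values was not tested, and the assay and the lentivirus cannot be told apart here. Set against RNA of GFP- sBC instead, a comparison chosen after seeing the data, the log2 fold change of IP-Ribo was 4.51 for SST, 2.96 for PPY, 2.25 for INS, 2.15 for IAPP and 0.81 for GHRL. SST and PPY were called higher against both kinds of RNA, INS passed against that of GFP- sBC and not that of GFP+ sBC, and for GHRL it was the reverse.

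Genes that overlap the hormones had rows of their own in the table. INS-IGF2, a read-through gene that contains INS, had 122 and 172 counts in GFP+ sBC RNA and 285 and 28 in GFP- sBC RNA, against 153360 and 181177 INS counts in GFP+ sBC RNA. In GFP+ sBC IP-Ribo it had 2 and 0 counts. Adding its counts to INS changed no call in any comparison. GHRLOS, transcribed antisense across GHRL, had 24 and 28 counts in GFP+ sBC RNA and 41 and 45 in GFP- sBC RNA, and 0 in both IP-Ribo libraries of GFP+ sBC, where GHRL had 48 and 27. Before the sBC stage it had more counts than GHRL itself, 106 and 128 in hPSC RNA and 105 and 115 in DE RNA. SLCO1A2, around IAPP, had 9.16 and 4.37 CPM in GFP+ sBC RNA and 3.11 and 4.86 CPM in GFP- sBC RNA, which overlapped, while those of IAPP did not. The IAPP difference did not pass the edgeR test across the sort.

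The genes whose levels ran most like each hormone over the 18 libraries were found by Pearson's correlation of log2(TMM CPM + 1) among 12056 protein-coding genes. For INS they were GCG, PCSK2, PAX4, ABCC8 and CNGA3 (r from 0.997 to 0.998), and for SST they were ALB, GPR119, FSTL5, GRIA3 and TMEM236 (0.996 to 0.999). For GHRL they were F5, CFB, DSC3, NT5E and TF (0.984 to 0.989), for PPY ASIC4, IFI30, GIP, TMEM190 and SLC17A1 (0.942 to 0.983) and for IAPP PLPPR4, VEGFC, EPHA3, G6PC2 and KCNH5 (0.931 to 0.973). Among the hormones themselves, INS and SST were most alike (r = 0.989), and IAPP and GHRL least (0.765). The points are 6 sBC libraries and 12 libraries of hPSC and DE, where the hormones are near 0, and the libraries of a group are not independent points.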

How the data were processed

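RNA, total ribosome footprints and FLAG pull-down footprints were measured in 9 groups of 2 libraries. Per the submitters' processing notes Salmon, DESeq2, UMI-tools, cutadapt and Bowtie were used, with no versions or roles, on GRCh38. The authors deposited expected counts, that is, estimates for 57808 genes, and 16.8% to 31.3% of the values in a library have a fractional part. Rounding to whole numbers preceded each test. Annotation release and strand setting are not given in the sources used here. Of the gene identifiers 57030 (98.7%) matched a reference of names.

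The tests used edgeR 4.0.16 under R 4.3.3 (robust quasi-likelihood F test after filterByExpr and TMM scaling, Benjamini-Hochberg over all genes, adjusted p under 0.05), in 5 fits and 8 comparisons. The sort, the comparison of DE with hPSC and that of IP-Ribo with RNA each used 4 libraries, sBC against earlier stages 8 RNA or 6 IP-Ribo libraries. Fold changes over a group at 0 are bounds against 3 counts over the group. Scripts were tested on simulated data. Python 3.11.15 with pandas 2.3.3, numpy 2.4.6, scipy 1.17.1 and matplotlib 3.10.9 did the rest.

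The 5 genes and the 14 gene lists were chosen with earlier results of these data known. Beyond the 5, the text names overlapping genes, GCG, the 5 genes of highest correlation (group mean of at least 10 CPM), and from each list up to 4 genes past the threshold and up to 2 not past it, besides some named for their role in hormone processing. Alternatives were RLE size factors, no filter or a stricter one (1 CPM and 10 counts in 2 libraries), DESeq2 1.42.0, protein-coding genes alone, the replicate number as a block, each library left out, and INS summed with INS-IGF2. The result of 1 marker gene is not reported here.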

Additional observations from a re-analysis of the deposited data

How the results depend on the processing

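SST across the sort, all stage comparisons of INS and SST, and SST in IP-Ribo against RNA kept direction and call in every alternative run. In the sort, INS was 1.76 with no filter, 1.78 by DESeq2, 1.83 with protein-coding genes alone, 1.83 with the replicate number as a block and 1.78 with all 8 RNA libraries, each time past the threshold, and 1.45 to 2.20 with 1 library left out. IAPP was 2.79 with no filter, 2.81 by DESeq2, 2.67 with the block and 2.81 with all 8 RNA libraries, again past it, and 1.86 to 3.38 with 1 library left out, and GHRL ran from -1.20 to -0.59. The 481 genes called in the sort became 1596 with no filter, 1263 by DESeq2, 1258 with the block, 1263 with all 8 RNA libraries and 384 to 7815 with 1 library left out.

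Calls in GFP- sBC against DE ran from 8919 to 16832 with 1 library left out (13644 in full), and 6561 instead of 15591 genes were called in DE against hPSC with all 8 RNA libraries. By DESeq2 GHRL in IP-Ribo lost its call at 9.20 against hPSC and 8.76 against DE, and IAPP against hPSC ran from 5.50 to 8.37 with 1 library left out. In IP-Ribo against RNA, INS passed by DESeq2 (0.49) and PPY lost its call with the block (1.74, adjusted p = 0.087, edgeR). With 1 library left out PPY ran from 0.62 to 2.59, GHRL from 1.12 to 2.01, IAPP from -1.32 to 0.25 and the calls from 5201 to 11009 (10797 in full). With RNA of GFP- sBC in place of GFP+ sBC, chosen after seeing the data, INS was 2.25 and passed, IAPP 2.15, GHRL 0.81 without passing, and 7087 genes were called. The cause of these changes was not tested.

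Replicate numbers were not taken as pairs, since no label ties libraries of the same number together. The replicate differences of groups in a fit correlated between -0.25 and 0.18 (0.09 for GFP+ and GFP- sBC). A low correlation does not show that the libraries were unpaired, and with the number as a block INS and IAPP passed in the sort. No crossed pairing was fitted. A left-out library leaves 1 in its group, which is assumed to vary like the others. Depth limits IAPP, PPY and GHRL in IP-Ribo, with 13 to 49 counts a library in sBC.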

Other observations

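Somatostatin and insulin receptors were also present in sBC, while GHSR, the ghrelin receptor, and NPY4R, a receptor of pancreatic polypeptide, had at most 0.292 CPM in any sBC library. The somatostatin receptor SSTR2 had 3.61 and 4.44 CPM in hPSC RNA, 21.4 and 25.4 CPM in DE RNA, 145 and 134 CPM in GFP+ sBC RNA and 61.0 and 103 CPM in GFP- sBC RNA. SSTR1, another somatostatin receptor, had at most 0.596 CPM in hPSC and DE RNA, and 63.8 and 67.9 CPM in GFP+ sBC RNA and 32.5 and 44.01 CPM in GFP- sBC RNA. Of 13 tested receptor genes 9 rose and 1 fell in GFP+ sBC RNA against hPSC, where 30.4% of all genes were higher and 30.9% lower, and the log2 fold change of the insulin receptor INSR was 3.04 ± 0.17 SE (edgeR adjusted p = 1.22e-05). Across the sort 0 of 11 passed in the edgeR fit. In IP-Ribo against RNA of GFP+ sBC, 2 of 10 were higher and 4 lower, against 26.6% and 32.2% of all genes, with SSTR1 (-2.16 ± 0.24) and SSTR2 (-1.75 ± 0.20) lower and SSTR3 (3.01 ± 0.86) higher. SSTR3 had 21.8 and 128 CPM in IP-Ribo and 25.2 and 18.9 CPM in RNA of GFP+ sBC. In hPSC it had 25.3 and 26.5 CPM in IP-Ribo and 0.163 and 0.292 CPM in RNA. With protein-coding genes alone, 1 receptor in place of 2 was higher in IP-Ribo than in RNA.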
